A study of Rattus norvegicus with 6 samples.

Results

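Growth factor receptors set which outside signals a cell can answer, and PC12 cells have long been used to study how such signals are relayed. The genes described here are 9 receptors of neurotrophins and other growth factors, chosen by name: Ntrk2, Ntrk3, Ngfr, Egfr, Erbb2, Fgfr1, Igf1r, Met and Pdgfrb. Each symbol matched 1 row of the deposited count table, so 9 of its 20609 genes are described. The libraries came from PC12, a rat line that was derived from a pheochromocytoma, which is a tumor of chromaffin cells in the adrenal medulla. The 3 control cultures were transfected with a control plasmid, and the 3 PCBP1-OE cultures with a plasmid for EGFP-tagged PCBP-1, an RNA-binding protein. Both groups share the cell line and the plasmid transfection. The share of cells that took up the plasmid is not given in the sources used here, the paper calls the overexpression stable in one place and describes a transfection with Lipofectamine in another, and the gene that was overexpressed was not analysed here. Whether replicates were separate cultures started on their own is not stated, so p-values measure the spread between these libraries. Poly-A RNA was sequenced, and the libraries held 19730209 to 22315623 counts on genes.

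All of the members but Ngfr encode receptor tyrosine kinases. Such a receptor spans the membrane, binds its ligand outside the cell, pairs with a neighbour and phosphorylates tyrosines inside, to which adaptors dock that start the RAS-ERK and PI3K-AKT pathways. The product of Ngfr, p75NTR, has no kinase. It binds all mature neurotrophins with low affinity, binds their precursors as well, and works alone, with sortilin or with a Trk kinase. In the nervous system p75NTR and the neuregulin receptor pair ErbB2 and ErbB3 are known from neural crest and Schwann cells.

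The receptors fell into a set with at least 132 reads in every library and a set with at most 9. Ngfr had 3664 to 4441 reads per library, Ntrk2 631 to 961, Erbb2 437 to 630 and Pdgfrb 535 to 676. Met had 208 to 343 reads, Fgfr1 193 to 290 and Igf1r 132 to 195. Ntrk3 had 2 to 9 reads per library and Egfr 0 or 1. No transcript lengths of these genes were at hand, so this order is one of reads and not of transcripts, since a long transcript yields more reads. In reads, the ranges of Erbb2 and Pdgfrb overlapped, as did those of Pdgfrb with Ntrk2, of Met with Fgfr1 and of Fgfr1 with Igf1r, while Ngfr stood above all others in every library.

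In PCBP1-OE cells no receptor passed an adjusted p of 0.05. Of the 9 genes, 7 had enough reads for edgeR's quasi-likelihood test, and 0 of these 7 passed it with Benjamini-Hochberg adjustment over all 12624 genes tested, of which 9.45% passed (4.45% higher and 5% lower in PCBP1-OE). At an unadjusted p under 0.05 there were 4 of 7 (Erbb2, Ntrk2, Met and Igf1r), against 28.4% of all genes tested. DESeq2 called 1 of the 7, Met, and limma-voom called 0. Between the groups, 2 of 7 receptors did not overlap (Ntrk2 and Erbb2, both lower in PCBP1-OE), against 30.6% of all genes tested (14.1% higher and 16.5% lower). The fitted changes were small, with 4 receptors higher, 3 lower and 0 changed 2-fold (0.19% of all genes tested were called and changed 2-fold), and their median log2 fold change was 0.06, beside 0.0029 over all genes tested.

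The labelled cell type was checked against its markers. Of 12 chromaffin markers 10 were found in the table. Dbh, which makes noradrenaline from dopamine, had 0 to 5 reads per library, Ddc 0 to 4, Slc18a2 0 to 3, Phox2a 1 to 7, and the granule proteins Chga 0 to 3 and Chgb 0 to 9. Th, the rate-limiting enzyme of catecholamine synthesis, had 141 to 185 reads, Gata3 26 to 38, Slc18a1 17 to 28 and Scg2, a secretogranin that also marks other secretory cells, 2607 to 3553. By contrast Sox10, a transcription factor of neural crest and glia, had 7160 to 9007 reads, S100b 4143 to 5339, Pmp22 3163 to 3968 and Erbb3 1500 to 2025, whereas the myelin gene Mbp had at most 13. Most defining markers of the labelled cell type were thus near 0 in both groups, and the receptors are described here as those of the cells in these libraries. The source of these profiles was not tested.

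**Figure D1:**
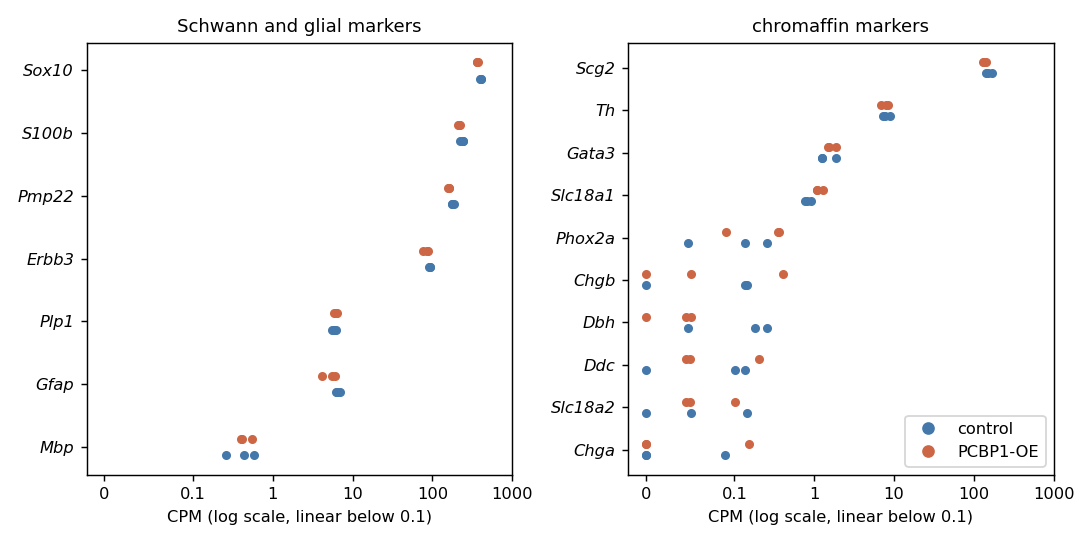
CPM of each library (points, 3 control and 3 PCBP1-OE) for 7 of the 8 Schwann and glial markers (left) and the 10 chromaffin markers found in the table (right), on a log axis that is linear below 0.1. Sox10 lies near 400 CPM in controls and Th near 8, while Dbh, Ddc, Chga and Chgb lie below 0.5 in every library.

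Ngfr (ENSRNOG00000005392, chromosome 10), the receptor with the most reads of the 9, had 187, 185 and 198 CPM (counts scaled to library size by the TMM method) in controls and 193, 202 and 199 in PCBP1-OE. Control replicate 3 lay among the PCBP1-OE libraries and the groups overlapped. The means were 190 ± 7.15 and 198 ± 4.41 (mean ± SD, n = 3 each), with a log2 fold change (PCBP1-OE over control) of 0.06 (SE, the standard error, 0.045, adjusted p = 0.406 by edgeR's quasi-likelihood test). The 95% interval of the fold change was 0.975 to 1.12, the narrowest among the 7 receptors tested.

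Ntrk2 (ENSRNOG00000018839, chromosome 17) encodes TrkB, the kinase receptor of BDNF and NT-4. It was at 39.8, 46.0 and 36.5 CPM in controls and at 35.7, 31.3 and 35.3 in PCBP1-OE. All PCBP1-OE libraries lay below all controls, but the lowest control and the highest PCBP1-OE library were less than 1 CPM apart. The means of 40.8 ± 4.84 and 34.1 ± 2.43 (mean ± SD, n = 3 each) gave a log2 fold change of -0.26 (SE 0.085, adjusted p = 0.0714 by edgeR), or 0.836-fold with a 95% interval of 0.736 to 0.950. The adjusted p fell to 0.00701 with control replicate 3 left out and rose to as much as 0.304 with another library left out, the highest value being that without control replicate 2. Ntrk2 makes a full-length kinase and truncated forms that lack it, and counts per gene do not tell these apart.

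Ntrk3 (ENSRNOG00000018674, chromosome 1), which encodes TrkC, the NT-3 receptor, had 3, 9 and 5 reads in controls and 2, 8 and 5 in PCBP1-OE. The groups overlapped fully, and the gene had too few reads for a test.

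**Figure D2:**
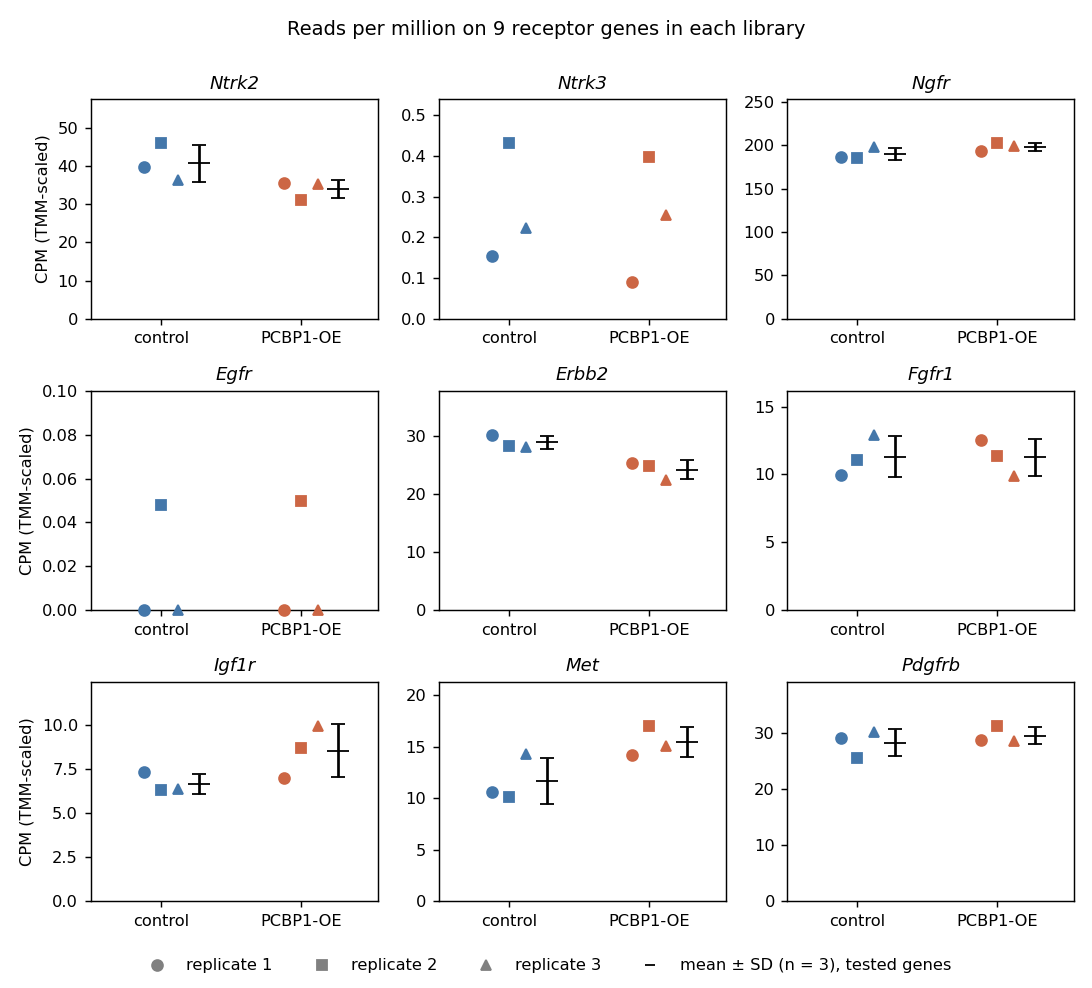
CPM of the 9 receptor genes in the 3 control and 3 PCBP1-OE libraries, 1 panel a gene, each y axis starting at 0, with the symbol giving the replicate and the bar the mean ± SD (n = 3) for the 7 genes tested. The groups separate for Ntrk2 and Erbb2, overlap for the others, and Ntrk3 and Egfr stay under 0.5 CPM.

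The ErbB family was represented by Erbb2 without Egfr. Egfr (ENSRNOG00000004332, chromosome 14), the EGF receptor, had 0, 1 and 0 reads in controls and 0, 1 and 0 in PCBP1-OE. Every library was thus below 3 reads. A count of 0 allows up to 3 reads, or 0.134 to 0.152 CPM in the libraries with 0, which covers counting error only. For control replicate 2 and PCBP1-OE replicate 2, with 1 read each, the limit is higher and was not computed. Hence no fold change is given, and Egfr was at or near 0 reads in every library. Erbb2 (ENSRNOG00000006450, chromosome 10) encodes a kinase that binds no ligand itself and signals as the partner of other ErbB receptors. It was at 30.2, 28.3 and 28.1 CPM in controls and at 25.3, 24.8 and 22.3 in PCBP1-OE. All PCBP1-OE libraries lay below all controls. The means were 28.9 ± 1.15 and 24.2 ± 1.62 (mean ± SD, n = 3 each), and the log2 fold change was -0.26 (SE 0.076), or 0.838-fold with a 95% interval of 0.747 to 0.939. Its adjusted p of 0.0529 in the same edgeR fit was the smallest among the receptors and just missed the threshold. Without control replicate 3 it was 0.0230, and it ranged up to 0.187 with other libraries left out.

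ErbB2's partner in neuregulin signaling is ErbB3, whose gene had 1500 to 2025 reads, while Erbb4 had 0 to 4 per library. Erbb3 was at 91.4 ± 0.980 CPM in controls and 82.6 ± 5.36 in PCBP1-OE (mean ± SD, n = 3 each), with -0.15 as log2 fold change (SE 0.052, adjusted p = 0.0844 by edgeR), with groups that did not overlap. A ratio of reads within a library needs no scaling between libraries. The ratio of Erbb2 to Erbb3 reads was 0.329, 0.308 and 0.311 in the control libraries and 0.301, 0.286 and 0.291 in PCBP1-OE, lower in 3 of 3. The ratio of Ngfr to Ntrk2 reads was 4.71 ± 0.705 in controls and 5.84 ± 0.551 in PCBP1-OE (mean ± SD, n = 3 each), and the groups met at 5.42. That of Pdgfrb to Pdgfra was 0.127 ± 0.012 and 0.146 ± 0.0124 (mean ± SD, n = 3 each), without overlap. The 3 ratios, chosen after their values were seen, had two-sided exact permutation p-values of 0.1 for Erbb2 to Erbb3, 0.2 for Ngfr to Ntrk2 and 0.1 for Pdgfrb to Pdgfra (0.15, 0.2 and 0.15 adjusted over the 3), and 3 libraries against 3 cannot go below 0.1.

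Met (ENSRNOG00000052745, chromosome 4), the receptor of hepatocyte growth factor, showed the greatest fitted change among the receptors. It was at 10.6, 10.2 and 14.3 CPM in controls and at 14.2, 17.0 and 15.1 in PCBP1-OE. Control replicate 3 stood apart from the other controls and lay just above the lowest PCBP1-OE library, so the groups overlapped. The means of 11.7 ± 2.26 and 15.4 ± 1.45 (mean ± SD, n = 3 each) gave a log2 fold change of 0.40 (SE 0.13, adjusted p = 0.0724 by edgeR), or 1.32-fold with a 95% interval of 1.08 to 1.61. DESeq2 gave an adjusted p of 0.0434. Without control replicate 3 the log2 fold change was 0.57 and the adjusted p 0.00301, and with other libraries left out the adjusted p rose as high as 0.263.

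Igf1r (ENSRNOG00000014187, chromosome 1), the receptor of insulin-like growth factors, was at 7.34, 6.32 and 6.38 CPM in controls and at 6.99, 8.72 and 9.96 in PCBP1-OE. PCBP1-OE replicate 1 lay within the controls and the other 2 above them. The means were 6.68 ± 0.574 and 8.56 ± 1.49 (mean ± SD, n = 3 each), and the log2 fold change was 0.35 (SE 0.15, adjusted p = 0.135 by edgeR). The 95% interval of the fold change ran from 1.02 to 1.60.

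Fgfr1 (ENSRNOG00000016050, chromosome 16), a receptor of fibroblast growth factors, was at 9.94, 11.1 and 12.9 CPM in controls and at 12.6, 11.4 and 9.85 in PCBP1-OE. The groups covered nearly the same range, at 11.3 ± 1.51 and 11.3 ± 1.36 (mean ± SD, n = 3 each). Its log2 fold change of -0.0078 (SE 0.13, adjusted p = 0.975 by edgeR) had a 95% interval from 0.820-fold to 1.21-fold. Pdgfrb (ENSRNOG00000018461, chromosome 18), the PDGF receptor known from pericytes and smooth muscle, was at 29.2, 25.6 and 30.1 CPM in controls and at 28.9, 31.3 and 28.5 in PCBP1-OE, again overlapping. The means were 28.3 ± 2.38 and 29.6 ± 1.50 (mean ± SD, n = 3 each), with a log2 fold change of 0.06 (SE 0.078, adjusted p = 0.649 by edgeR). The 7 pericyte and smooth muscle markers were uneven, since Rgs5 had 0 to 4 reads, Acta2 2 to 5, Des 20 to 43, Tagln 51 to 107, Myh11 257 to 306, Mcam 1511 to 1969 and Cspg4, shared with glial precursors, 3435 to 4662.

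**Figure D3:**
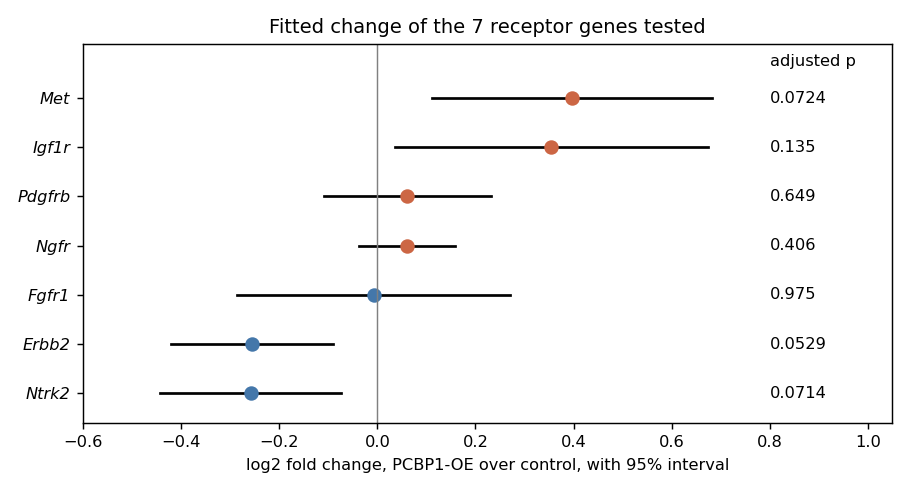
Fitted log2 fold change of PCBP1-OE over control (points) with 95% intervals (lines) for the 7 receptors tested, from edgeR's quasi-likelihood fit of 3 against 3 libraries, and the adjusted p beside each. The points run from -0.26 for Ntrk2 and Erbb2 to 0.40 for Met, and 0 of 7 adjusted p-values reach 0.05.

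Control replicate 3 was the library on which the receptor calls turned. When it was left out, 3 of 7 receptors passed an adjusted p of 0.05 (Met higher, Ntrk2 and Erbb2 lower), and with any other library left out 0 of 7 did. The number of calls over all genes moved in the same way, from 1193 in the reported fit to 2860 without control replicate 3. With any other single library left out it was 48 to 697, so the receptor counts moved with those over all genes. In Ngfr, Met, Ntrk2 and Erbb2 control replicate 3 was the control nearest to the PCBP1-OE mean. In Erbb2 this was by little, at 28.1 CPM beside 28.3 in control replicate 2. Another control was nearest in Igf1r, Fgfr1 and Pdgfrb. Control replicate 3 had the most counts of the 6, 22315623, and the part of depth in these values was not tested.

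**Figure D4:**
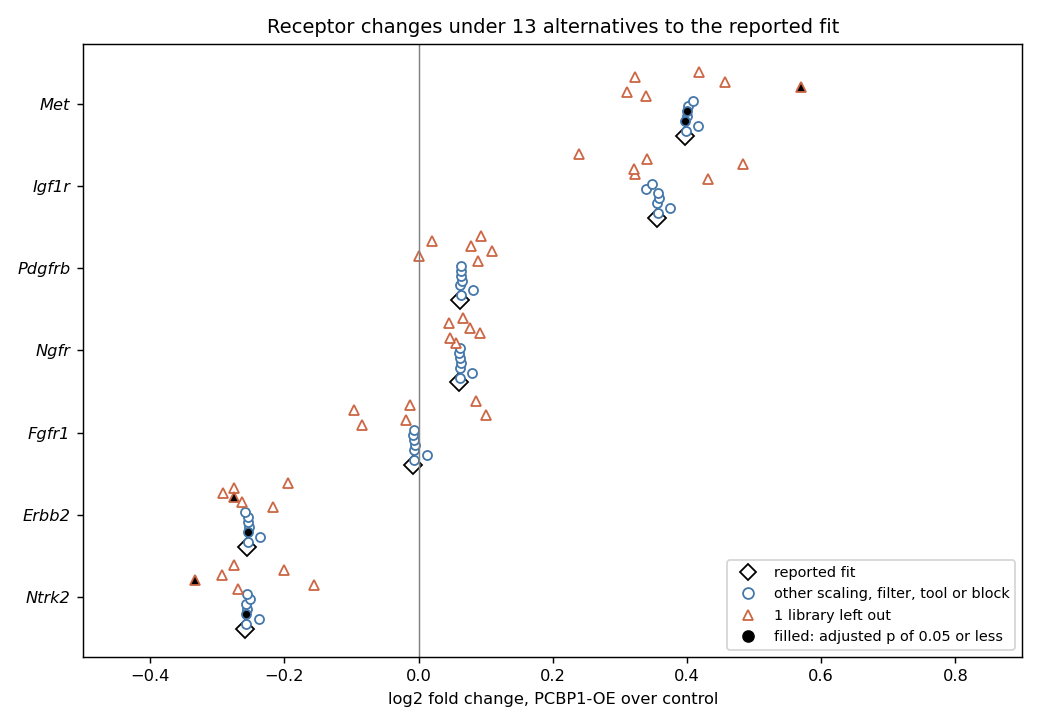
Log2 fold change of the 7 receptors in the reported fit (diamonds), in 7 fits with another scaling, filter, tool or a replicate block (circles) and in 6 fits without 1 library (triangles), filled where the adjusted p was 0.05 or less. Filled symbols appear only for Met, Erbb2 and Ntrk2, and Fgfr1 lies on either side of 0.

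The glial markers and the receptors shared with them lay slightly lower in PCBP1-OE. The summed level of the 8 Schwann and glial markers was 888 to 945 CPM in controls and 826 to 855 in PCBP1-OE. Of the 6 tested, 1 passed an adjusted p of 0.05, Pmp22, which was lower, with a log2 fold change of -0.18 (SE 0.045, adjusted p = 0.0315 by edgeR). This is 16.7% of those tested, against 9.45% of all genes, and the list had 0 calls with the replicate block and in 5 of the 6 fits without 1 library, all but that without control replicate 3. Erbb2 and Ntrk2 lay lower in the same libraries, and the part of these markers in their values was not tested. In bulk RNA, fewer cells of a type and less RNA per cell cannot be told apart. The 10 chromaffin markers summed to 152 to 182 CPM in controls and 141 to 154 in PCBP1-OE, mostly Scg2, and 0 of 4 tested were called. For 5 fibroblast markers, including Pdgfra, the sums were 225 to 230 and 200.1 to 212 CPM with 0 of 3 called, and for 7 pericyte and smooth muscle markers they were 307 to 326 and 271 to 298 CPM with 1 of 5 called (Mcam, lower, with 0 called under upper-quartile scaling, the replicate block or 5 of the 6 fits without 1 library). For 5 leukocyte markers, with Ptprc at 0 to 3 reads, they were 6.87 to 7.86 and 6.18 to 6.35 CPM with 0 of 2 called. Those of 5 epithelial markers, mostly Epcam, were 53.6 to 59.2 and 49.5 to 54.8 CPM with 0 of 2 called, and those of 5 endothelial markers 14.0 to 16.5 and 14.1 to 15.9 CPM with 0 of 3 called. In the lists with 0 calls, edgeR gave an unadjusted p under 0.05 to 1 chromaffin marker (Scg2), 1 fibroblast marker (Pdgfra) and 1 epithelial marker (Epcam) and to 0 leukocyte or endothelial markers, of which DESeq2 called Pdgfra and limma-voom none.

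Among other growth factor receptors and co-receptors, 33 were listed and 18 had enough reads for a test. The receptor with the most reads was Axl, a receptor of Gas6, at 570 ± 21.1 CPM in controls and 541 ± 16.2 in PCBP1-OE (mean ± SD, n = 3 each). Only Fgfrl1, an FGF receptor family member without a kinase domain, passed the test among these 18, with a log2 fold change of -0.23 (SE 0.059, adjusted p = 0.0338 by edgeR). This is 5.56% of the list, against 9.45% of all genes tested, and 0 passed with the replicate block or in 5 of the 6 fits without 1 library. Pdgfra, the sister of Pdgfrb, was at 223 ± 2.64 CPM in controls and 203 ± 6.74 in PCBP1-OE (mean ± SD, n = 3 each; adjusted p = 0.0644 by edgeR). Fgfr2 and Fgfr4 had 0 to 8 reads per library, Fgfr3 273 to 352, and 6 of the 33 had at most 3 reads in every library.

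Of the ligands, 37 were found and 22 were tested. In the reported fit 0 passed an adjusted p of 0.05, against 9.45% of all genes tested. With edgeR 2 of the 22 had an unadjusted p under 0.05 (Ntf4 lower and Vegfa higher), against 28.4% of all genes tested. DESeq2 and limma-voom called 0 of the 22 ligands. Hbegf, a ligand of EGFR and ErbB4, had the most reads of them, at 79.1 ± 1.42 CPM in controls and 79.5 ± 5.32 in PCBP1-OE (mean ± SD, n = 3 each). Among the neurotrophin genes, Bdnf had 20 to 40 reads per library, Ntf4 16 to 37 and Ntf3 0 or 1. Hgf, the ligand of Met, had 11 to 20 reads.

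The partners of p75NTR and the Trk receptors numbered 23, of which 19 were tested and 2 passed (10.5%, against 9.45% of all genes tested). The count was 0 with the replicate block, 3 without control replicate 3 and 0 without any other single library. Adam10, a protease that sheds the outer part of many receptors, rose with a log2 fold change of 0.37 (SE 0.10, adjusted p = 0.0437 by edgeR). Arhgdia, an inhibitor of small GTPases that p75NTR binds, fell by 0.15 on the log2 scale (SE 0.041, adjusted p = 0.0407), and with upper-quartile scaling it no longer passed. Sort1, the sortilin gene, was at 38.3 ± 0.590 CPM in controls and 35.6 ± 1.46 in PCBP1-OE (mean ± SD, n = 3 each; adjusted p = 0.281 by edgeR).

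Downstream of the receptors, 7 of 40 adaptors and relay genes passed (17.5%), 3 higher and 4 lower, against 9.45% of all genes tested (4.45% higher and 5% lower). Map2k2, an ERK kinase, fell by 0.25 on the log2 scale (adjusted p = 0.0141), Akt1 by 0.20 (0.0178), Pik3r2, a PI3K regulatory subunit, by 0.31 (0.0205) and Mapk3, which encodes ERK1, by 0.20 (0.0227). Those that rose were Sos2, an exchange factor for RAS, by 0.22 (0.0208), Irs2, an adaptor of the insulin and IGF receptors, by 0.32 (0.0395), and Gab1, an adaptor that docks to MET, by 0.62 (0.0431), all from the same edgeR test. Among 33 genes of receptor turnover and feedback, 4 passed (12.1%, against the same 9.45%). Nf1, which switches RAS off, rose by 0.60 (SE 0.082, adjusted p = 0.00263), as did Stam by 0.19 (0.0197) and Rasa1 by 0.24 (0.0477), and Grb14 fell by 0.22 (0.0208). Nf1 passed with each single library left out. Stam sorts receptors at endosomes, and Grb14 is an inhibitor of the insulin receptor. Over all 6 lists of the pathway, 21 of 153 genes tested passed, 12 higher and 9 lower, beside 9.45% of all genes. This count fell to 1 without control replicate 2, 2 without PCBP1-OE replicate 2 and 6 without PCBP1-OE replicate 1. It was 7 without control replicate 1, 11 without PCBP1-OE replicate 3 and 35 without control replicate 3. Over all genes the calls moved likewise, from 1193 to 48, 136, 169, 246, 697 and 2860 in the same order.

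The list of growth factor response genes had the highest share of calls, with 7 of 21 (33.3%), 5 higher and 2 lower. Over all genes tested 9.45% were called (4.45% higher and 5% lower). The lists were chosen with earlier results of these data known, so this share is a description and not a test of enrichment. With the replicate block 0 of 21 passed, and 16 over all genes. Junb rose by 0.26 on the log2 scale (adjusted p = 0.00863), Btg2 by 0.42 (0.00978), Myc by 0.25 (0.0178), Egr1 by 0.34 (0.0221) and Klf10 by 0.20 (0.0257). Etv5 fell by 0.29 (0.0102) and Etv4 by 0.29 (0.0105), in the same edgeR fit. Junb, Myc, Egr1 and Klf10 are early transcription factor genes, and Etv4 and Etv5 are targets of FGF and RET signaling. The median log2 fold change of the list was -0.02, beside 0.0029 over all genes. The count of calls in this list moved with single libraries, as did that over all genes. It was 0 without control replicate 2, 1 without PCBP1-OE replicate 2 and 4 without control replicate 1 or PCBP1-OE replicate 1. It was 5 without PCBP1-OE replicate 3 and 10 without control replicate 3. Over all genes 48 were called without control replicate 2, 136 without PCBP1-OE replicate 2 and 2860 without control replicate 3.

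**Figure D5:**
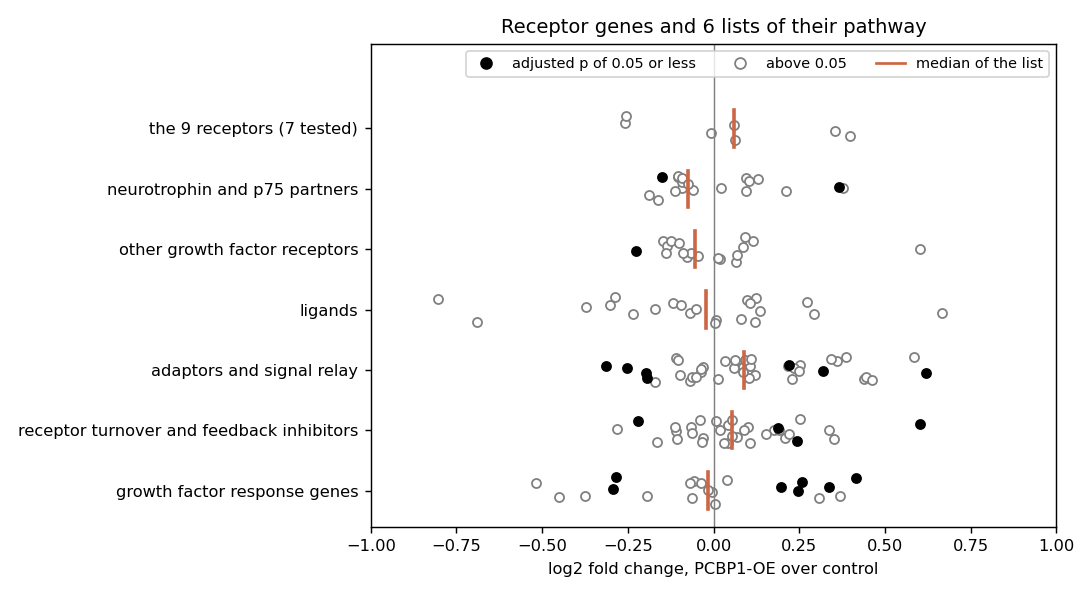
Log2 fold change of PCBP1-OE over control for each tested gene (points) of the receptors and of 6 lists of their pathway, filled where the adjusted p was 0.05 or less, with the list's median as a vertical line. The receptors hold 0 filled points of 7, and the growth factor response genes hold 7 of 21.

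Genes whose levels followed those of a receptor most closely over the 6 libraries were found by Pearson's r on log2(CPM + 0.5), among 9546 genes of at least 5 CPM. With 6 points shared by all genes, many genes reach a high r, so these are descriptions. Met was closest to Zfp451 (r = 0.996) and Zeb1 (r = 0.994), and 503 genes had an r of at least 0.9 with it. For Ntrk2 they were Arpp19 (0.994) and Dapk3 (0.992), and for Erbb2 Scrib (0.995) and Ccdc102a (0.991). Ngfr was closest to LOC499339 (0.995) and Dlc1 (0.991), Igf1r to Pom121 (0.984) and Tead1 (0.983), Fgfr1 to Gdpd1 (0.993) and Tbc1d9b (0.986), and Pdgfrb to Copa (0.992) and Dtna (0.986).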

How the data were processed

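RNA-seq libraries of 3 control and 3 PCBP1-OE cultures were grouped and numbered by their titles. The deposited values are raw counts, which the authors made per gene from uniquely mapped reads after trimming (FASTX-Toolkit) and alignment with TopHat2 to the rat build Rnor_6.0. The libraries were strand-specific, but which counter was run, and whether it used strand, is not given in the sources used here, and overlapping genes are therefore uncertain. The labels list GRCh38, a human build, and name a library kit other than the methods do, while the gene IDs are rat.

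Counts were tested with edgeR 4.0.16 (quasi-likelihood, TMM, filterByExpr with minimum count 10 and total 15, R 4.3.3) over 12624 genes, leaving out 7985, with Benjamini-Hochberg adjustment over all of them, and intervals used its standard errors. The alternatives used DESeq2 1.42.0 and limma 3.58.1. The pipeline was tested on simulated data. Totals of 19730209 to 22315623 counts set the depth.

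The members and lists were chosen with earlier results of these data known. List genes were matched by symbol or, for 1 gene, by a RefSeq synonym (GRCr8), and a symbol on several rows was left out. Named genes are the receptors, the chromaffin markers and, of each pathway list, up to 5 called genes with the smallest adjusted p and the gene with the most reads. Other genes were named after their values were seen. Some list genes count in the totals but are not reported here by name.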

Additional observations from a re-analysis of the deposited data

How the results depend on the processing

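Over 13 alternatives, Ntrk2, Ngfr, Erbb2, Igf1r, Met and Pdgfrb kept the direction of their log2 fold change in all. Without a filter on low counts 3 receptors were called, 1 higher and 2 lower: Ntrk2 at -0.26, Erbb2 at -0.25 and Met at 0.40. DESeq2 called 1, Met, at 0.40 and higher, and 0 lower. With single libraries left out, 0 to 3 receptors were called, 0 or 1 higher and 0 to 2 lower. Their log2 fold changes then ranged from -0.33 to -0.16 for Ntrk2, from -0.29 to -0.20 for Erbb2, from 0.31 to 0.57 for Met, from 0.24 to 0.48 for Igf1r, from 0.05 to 0.09 for Ngfr, from 0.0001 to 0.11 for Pdgfrb and from -0.10 to 0.10 for Fgfr1. Fgfr1 turned positive with upper-quartile scaling (0.012), without control replicate 3 (0.10) and without PCBP1-OE replicate 3 (0.086), and the cause was not tested. The calls over all genes were 2090 with no filter and 48 to 2860 with 1 library left out, and upper-quartile scaling moved their split from 562 higher and 631 lower to 655 and 427. The pathway lists gave 19 higher calls with no filter, and with 1 library left out 1 to 22 higher and 0 to 13 lower.

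With the replicate number as a block, 16 genes were called over all, 0 higher and 0 lower in the pathway lists and 0 receptors. The numbers did not pair the libraries, since deviations from the group means correlated at -0.0912, -0.0669 and -0.0796 between libraries of the same number, and these libraries did not correlate best with their own number. Levels from total counts alone gave the group means of all 9 receptors to within 1 SD. No other length measure was tried. At this depth Egfr and Ntrk3 were not resolved.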
